A study of Mus musculus with 18 samples.

Results

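Static cultures of 2 knockout kidney cell lines were compared with each other: cells without Dync2h1 and cells without Ift140. The lines are represented by 6 of the 18 libraries in the series, 3 of the static Dync2h1 knockout and 3 of the static Ift140 knockout, chosen by their labels. The other 12 libraries entered the same fit, which set the scaling and a shared estimate of the spread, so every SE, p and call rests on all 18 libraries unless stated otherwise. Genes entered when at least 3 of these 6 libraries had 1 TPM or more, which kept 15353 of 49845 gene names. TPM is a transcript's share of its library corrected for gene length, so it can be compared between genes, and it was scaled between libraries here. All cells were IMCD3, an immortal line from the mouse inner medullary collecting duct with the strain background Tg(SV40E)bri/7, an SV40 transgene, at passage 10 to 15. They were kept for 3 h in microslide chambers without flow, and total RNA was sequenced. The other groups were wild-type IMCD3 cells, static, and the same 3 genotypes under flow at 0.7 dyne/cm2. The labels do not say how many clones stand for a knockout line, nor whether replicates came from separate cultures. What a p-value weighs here is library-to-library spread, which may be technical, and a difference between the lines cannot be told apart from a difference between the clones.

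The primary cilium is a sensory organelle that most kidney tubule cells carry. Intraflagellar transport (IFT) moves cargo along it, with kinesin-2 and the IFT-B complex carrying cargo towards the tip and dynein-2 with the IFT-A complex returning it. Ift140 is a subunit of IFT-A and Dync2h1 is the heavy chain of the dynein-2 motor, so both knockouts affect the return path, and the comparison asks where their transcriptomes differ.

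The targeted transcripts followed the labels. Ift140 (chromosome 17, 25016085 to 25099495 on GRCm38) was at 6.26, 6.39 and 7.31 TPM in the static Ift140 knockout libraries and at 15.0, 14.2 and 18.5 TPM in the Dync2h1 knockout libraries. Wild-type static libraries held 16.5, 19.4 and 18.8 TPM of it. The difference, Dync2h1 minus Ift140 knockout, was 1.14 ± 0.18 (SE) on the log2(TPM + 1) scale, with an adjusted p of 0.000249 in limma. Dync2h1 (chromosome 9, 6928503 to 7184446) was at 31.2, 33.1 and 30.5 TPM in the Ift140 knockout and at 15.1, 9.63 and 15.5 TPM in the Dync2h1 knockout, against 40.4, 45.2 and 33.9 TPM in wild type. Its difference was -1.20 ± 0.20 with an adjusted p of 0.000397. Neither gene's libraries overlapped between the lines, and an exact two-sided permutation test of each gene alone gave p = 0.1, the smallest that 3 against 3 libraries allow. Both transcripts remained detectable in their own knockout, and TPM of a whole gene does not show which exons remain.

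Pearson correlations of log2 values were 0.970 to 0.985 within the Ift140 knockout, 0.982 to 0.985 within the Dync2h1 knockout and 0.945 to 0.960 between the lines. Replicate 3 of each line differed from the rest of its group in composition: small RNA genes took 16.4% of TPM in Ift140 knockout replicate 3 and 17.3% in Dync2h1 knockout replicate 3, against 21.5% to 24.5% in the other 4 static knockout libraries. Ift140 knockout replicate 3 was also apart on the second principal component of the static libraries, at 42.6 against 21.4 and 20.6 for its group. Among the flow libraries, the library labelled Ift140 knockout replicate 3 stood apart. It held 14.3 TPM of Ift140, against 7.61 and 8.66 TPM in the other libraries of its group, so the flow values in the text are given with and without it. Of 19 principal cell markers of the collecting duct, 11 were below 1 TPM in all 6 libraries. Among them were the water channel gene Aqp2, at 0 to 0.043 TPM, and Kcnj1, listed at 0. Wild-type static libraries also listed both at 0. Markers that reached 1 TPM included Akr1b3 (46.7 to 70.0 TPM) and Hoxb7 (14.8 to 21.4 TPM). The summed markers were 94.6 to 119 TPM in the Ift140 knockout, 89.9 to 95.1 TPM in the Dync2h1 knockout and 116 to 122 TPM in wild type.

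Of the genes tested, 1751 (11.4%) were higher in the Dync2h1 knockout and 1836 (12%) were lower, at an adjusted p under 0.05. Either direction took 3587 genes (23.4%), and the median difference of all genes was 0.03. All 3 libraries of the Dync2h1 knockout lay above all 3 of the Ift140 knockout for 3442 genes (22.4%) and below them for 3047 (19.8%), called or not. Differences of at least 1 on the log2 scale, a 2-fold change, were found for 368 higher genes (2.40%) and 302 lower genes (1.97%). The balance of directions depended on scaling: 48.8% of calls were higher after trimmed-mean scaling and 37.5% on the deposited values as they stand. A fit of the 6 libraries alone called 1831 higher and 1836 lower genes, and 3093 of its calls were calls of the 18-library fit. The counts were 1618 and 1539 without Ift140 knockout replicate 3 and 1292 and 1451 without Dync2h1 knockout replicate 3. Some genes reached 1 TPM in all 3 libraries of 1 line and in 0 of the other, 151 in the Ift140 knockout and 150 in the Dync2h1 knockout. They passed the level filter through 1 line alone and so had to differ, and they are named or counted beside the lists that are described.

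Among the largest differences were transcripts close to absent from 1 of the lines. Serpinh1, which encodes the collagen chaperone HSP47, was at 0.163, 0.107 and 0.122 TPM in the Ift140 knockout and at 59.3, 65.4 and 58.6 TPM in the Dync2h1 knockout. Wild-type cells held 116, 107 and 121 TPM, so the Ift140 knockout was the line that differed most from them. The difference was 5.78 ± 0.08 (adjusted p = 8.84e-17), the largest higher value among the named genes. Serpinh1 lies on chromosome 7 (99345376 to 99353239). It passed the level filter through the Dync2h1 knockout alone and so had to differ.

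**Figure D1:**
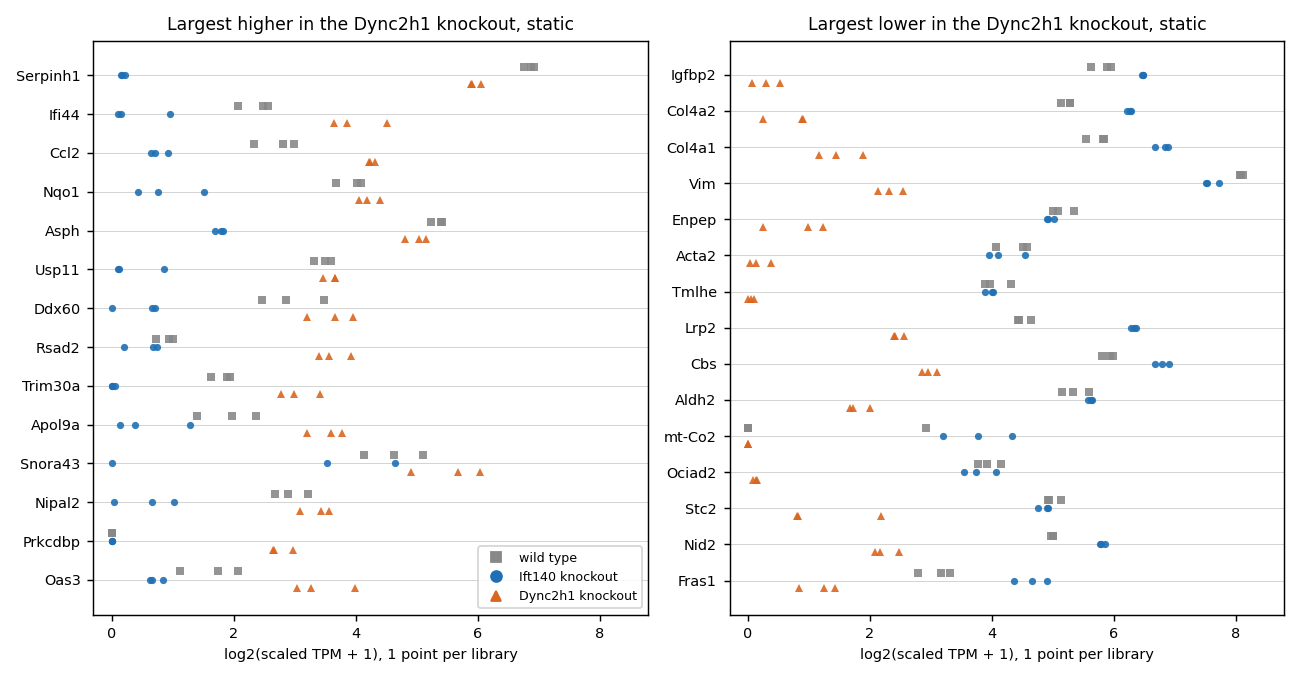
Levels of 14 of the 15 genes with the largest higher difference (left) and the 15 with the largest lower difference (right) in the static Dync2h1 knockout, as log2(scaled TPM + 1). Each point is 1 static library (grey squares wild type, blue circles Ift140 knockout, orange triangles Dync2h1 knockout). For Serpinh1 the Ift140 knockout sits near 0 and wild type is high, while for Igfbp2, Col4a1 and Vim the Dync2h1 knockout sits near the bottom of the scale.

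Several other transcripts were close to absent from the Ift140 knockout and present in both other genotypes. Usp11, a deubiquitinase gene, was at 0.0916, 0.0777 and 0.808 TPM in the Ift140 knockout and at 11.6, 10.1 and 11.6 TPM in the Dync2h1 knockout, with 11, 10.4 and 9.02 TPM in wild type. Nqo1, a quinone reductase gene and NRF2 target, was at 0.356, 0.700 and 1.87 TPM against 20, 15.7 and 17.1 TPM, and Asph, an aspartyl hydroxylase gene, was at 2.25, 2.53 and 2.48 TPM against 27.2, 34.6 and 31.9 TPM. The difference was 3.30 ± 0.24 for Nqo1 and 3.23 ± 0.16 for Asph. For all 3 genes the Dync2h1 knockout was nearer to wild type than the Ift140 knockout was. Prkcdbp, which encodes a caveolar protein (cavin-3), was the reverse case. It was listed at 0 in every static Ift140 knockout and wild-type library and was at 5.22, 6.83 and 5.29 TPM in the Dync2h1 knockout. Usp11 and Prkcdbp passed the level filter through the Dync2h1 knockout alone and so had to differ.

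The largest lower differences included genes of the matrix, the cytoskeleton, an endocytic receptor and metabolism. Igfbp2, an insulin-like growth factor binding protein gene on chromosome 1 (72824503 to 72852474), was at 88.3, 88.2 and 87.8 TPM in the Ift140 knockout and at 0.224, 0.0510 and 0.450 TPM in the Dync2h1 knockout. Its difference was -6.18 ± 0.16 (adjusted p = 1.86e-13). Igfbp2, and Acta2 below, passed the level filter through the Ift140 knockout alone and so had to differ. Vim, the gene of the mesenchymal intermediate filament vimentin, was at 211, 184 and 181 TPM against 3.38, 4.81 and 3.96 TPM, a difference of -5.26 ± 0.13. Wild-type cells held 268, 270 and 279 TPM of Vim and 61.0, 48.3 and 58.4 TPM of Igfbp2, so for both genes the Dync2h1 knockout was the line far from wild type. Acta2, smooth muscle actin, was at 22.4, 14.5 and 16.2 TPM against 0.309, 0.0917 and 0.0281 TPM.

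Several of the others encode enzymes. Cbs, which encodes the first enzyme of transsulfuration, was at 119, 102 and 109 TPM in the Ift140 knockout and at 7.63, 6.22 and 6.78 TPM in the Dync2h1 knockout (-3.82 ± 0.12). Aldh2, mitochondrial aldehyde dehydrogenase, was at 49.2, 48.2 and 46.7 TPM against 2.18, 2.32 and 2.99 TPM (-3.82 ± 0.20). Tmlhe, the first enzyme of carnitine synthesis, was at 15.2, 15.0 and 13.9 TPM against 0, 0.0408 and 0.0750 TPM (-3.92 ± 0.13). Lower values of this size were also found for Enpep, a glutamyl aminopeptidase gene (-4.12 ± 0.21), Ociad2 (-3.67 ± 0.21), the secreted glycoprotein gene Stc2 (-3.60 ± 0.32) and the matrix protein gene Fras1 (-3.47 ± 0.28). The mitochondrial gene mt-Co2 was listed at 0 in all Dync2h1 knockout libraries and at 8.21, 12.7 and 19.2 TPM in the Ift140 knockout, but 2 of 3 wild-type libraries also listed it at 0, and under flow it was listed at 0 in all Ift140 knockout libraries. It was the 1 gene of these 15 whose direction was not kept under flow, and no fold is given for it. Tmlhe, Ociad2 and mt-Co2 passed the level filter through the Ift140 knockout alone and so had to differ.

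Megalin and its partners are the endocytic receptors of tubule cells. Lrp2, the megalin gene, was at 77.1, 80.1 and 81.3 TPM in the Ift140 knockout and at 4.25, 4.34 and 4.93 TPM in the Dync2h1 knockout, a difference of -3.87 ± 0.15. Wild type, at 24.1, 20.8 and 20.5 TPM, lay between the lines. Dab2, an adaptor for megalin, was at 17.3, 23.6 and 19.3 TPM against 6.91, 6.34 and 5.67 TPM (-1.52 ± 0.19). Cubn, the co-receptor cubilin, did not pass (0.26, adjusted p = 0.233). It was at 2.28 to 3.96 TPM in the Ift140 knockout and at 3.72 to 4.38 TPM in the Dync2h1 knockout, against 407 to 414 TPM in wild type. Of 20 tested members of this list, 6 were lower (30%) and 0 were higher, against 12% and 11.4% of all genes.

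The basement membrane, the sheet of type IV collagen, laminin and nidogen under epithelia, differed in its components one by one. Col4a1 and Col4a2, the chains of the ubiquitous type IV collagen, stand head to head on chromosome 8, with RefSeq starts at 11312826 and 11312805, 21 bases apart. Col4a1 was at 117, 101 and 114 TPM in the Ift140 knockout and at 1.73, 2.69 and 1.24 TPM in the Dync2h1 knockout (-5.31 ± 0.17). Col4a2 was at 73.3, 76.6 and 75.7 TPM against 0.842, 0.194 and 0.872 TPM (-5.57 ± 0.20). Both chains thus differed by a similar amount, and wild type lay between the lines, at 45.9 to 56.0 TPM for Col4a1 and 34.4 to 37.9 TPM for Col4a2. The other type IV chains that were tested, Col4a3 to Col4a6, ranged from -0.36 to -0.24 and none passed.

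Nidogen and laminin genes went in both directions. Nid2 was at 54.2, 53.9 and 57.2 TPM in the Ift140 knockout and at 3.24, 4.57 and 3.48 TPM in the Dync2h1 knockout (-3.57 ± 0.12). Lama1, a laminin alpha chain gene on chromosome 17, was at 7.48, 10.1 and 10.3 TPM against 0, 0 and 0.291 TPM (-3.23 ± 0.25). The gamma chain gene Lamc1 was lower (-0.93). The chain genes Lama3 (1.55) and Lamb3 (0.52) were higher. The median of the 25 tested basement membrane genes was -0.16. In all, 5 were higher (20%) and 7 lower (28%), against 11.4% and 12% of all genes. Of these calls Col4a2, Lama1 and Serpinh1 passed the level filter through 1 line alone. Serpinh1, the chaperone that collagens need, is the member with the largest higher value, so its near-loss was in the other line than that of Col4a1 and Col4a2.

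Interstitial matrix genes were lower for 10 of 18 tested members (55.6%) and higher for 5 (27.8%), against 12% and 11.4% of all genes. Their median was -0.44 against 0.03 for all genes. Tnc, tenascin C, was at 93.2, 97.4 and 91.4 TPM in the Ift140 knockout and at 20.3, 23.2 and 26.8 TPM in the Dync2h1 knockout (-1.97 ± 0.12). Fn1, fibronectin, averaged 482 against 220 TPM (-1.10 ± 0.30), and the type VI collagen genes Col6a1 and Col6a2 were lower by -2.0 and -1.70, Col6a2 having entered through the Ift140 knockout alone. Plau, the urokinase gene, went the other way, from 111, 106 and 108 TPM to 245, 261 and 275 TPM (1.26 ± 0.12), as did its receptor gene Plaur (0.53) and Plat, the other plasminogen activator gene (0.43). The higher count fell from 5 to 3 without Dync2h1 knockout replicate 1.

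Integrins are the cell's matrix receptors. Among 21 tested genes of this list 4 were higher (19%) and 7 lower (33.3%), against 11.4% and 12% of all genes. The list thus had no single direction. Itga2, a collagen receptor subunit gene, was at 9.80, 10.3 and 10.8 TPM in the Ift140 knockout and at 43.2, 35.8 and 42.2 TPM in the Dync2h1 knockout (1.87 ± 0.15). Itga1, another collagen receptor subunit, was at 22.9, 18 and 20.8 TPM against 8.49, 8.55 and 8.10 TPM (-1.19 ± 0.13). Itgb6 (1.44) and Itga3 (0.78) were higher, and the fibronectin receptor gene Itga5 (-1.32) and Itgb8 (-1.16) were lower. Itga9 was listed at 0 in all Dync2h1 knockout libraries and was at 1.21 to 1.54 TPM in the Ift140 knockout, through which alone it entered.

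Epithelial genes were higher and mesenchymal genes lower in the Dync2h1 knockout. Of 40 tested genes of cell junctions and epithelial polarity 24 were higher (60%) and 4 lower (10%), with a median of 0.43. This compares with 11.4% and 12% of all genes. Rab25, an epithelial recycling GTPase, was at 7.28, 8.02 and 6.48 TPM in the Ift140 knockout and at 43.3, 55.2 and 52.7 TPM in the Dync2h1 knockout (2.63 ± 0.20). Ap1m2, the epithelial clathrin adaptor subunit, was at 15.8, 12.4 and 17.1 TPM against 76.4, 81.7 and 71.8 TPM (2.28 ± 0.12), and in wild type it was listed at 0, 0 and 0.0492 TPM. Both lines therefore held Ap1m2 transcripts that wild-type cells almost lacked.

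The junction proteins themselves showed smaller differences. Cdh1, E-cadherin, was at 38.7, 40.5 and 34.4 TPM in the Ift140 knockout and at 60.8, 58.0 and 81.9 TPM in the Dync2h1 knockout (0.79 ± 0.18, adjusted p = 0.00442). Differences of this order were seen for occludin (Ocln, 0.88), Epcam (0.62), the claudin genes Cldn7 (0.66), Cldn4 (0.45) and Cldn3 (0.36), the kidney cadherin gene Cdh16 (0.75) and the splicing factor gene Esrp1 (1.33 ± 0.11). The exceptions past the threshold were the pore-forming claudin gene Cldn2 (-1.53), which entered through the Ift140 knockout alone, Elf3 (-0.55), Cldn12 (-0.44) and Pkp2 (-0.24). Without Dync2h1 knockout replicate 3 the lower count was 2, not 4.

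Of 16 tested mesenchymal genes 9 were lower (56.25%) and 2 higher (12.5%), against 12% and 11.4% of all genes. The list median was -0.79, and Acta2 entered through the Ift140 knockout alone. Besides Vim and Acta2, the lower genes included some repressors of E-cadherin. Zeb1 was at 4.48 to 6.02 TPM in the Ift140 knockout and 0.328 to 1.26 TPM in the Dync2h1 knockout (-1.84 ± 0.21). Zeb2 differed by -1.78 ± 0.33 and Twist2 by -1.70 ± 0.14. Twist2 lies on chromosome 1, where the median gene was lower as well. The cadherin gene Cdh6 was lower (-1.42), while N-cadherin, Cdh2, did not pass (-0.22). S100a4 (1.08) and Snai3 (0.60) were higher. Wild-type levels of Vim, Zeb1, Zeb2 and Cdh6 were nearer to those of the Ift140 knockout. Keratin genes shared no such direction: Krt7 was higher (0.38), Krt20 (-1.11), Krt80, Krt17 (-0.58) and Krt8 (-0.31) were lower, and Krt18 and Krt19 did not pass. The lower keratin and vimentin count was 3, not 5, without Dync2h1 knockout replicate 1 or 2.

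The contractile genes that serum response factor (SRF) drives were lower for 11 of 30 tested members (36.7%) and higher for 2 (6.67%). Of all genes 12% were lower and 11.4% higher. The list median was -0.22, and 2 of the lower members, Acta2 among them, entered through the Ift140 knockout alone. Tagln, SM22, was at 11.5, 12.3 and 10.9 TPM against 0.895, 1.31 and 2.02 TPM (-2.41 ± 0.18), and Mylk, myosin light chain kinase, at 19.6, 19.5 and 18.2 TPM against 3.69, 6.83 and 6 TPM (-1.66 ± 0.16). Srf itself was lower (-0.75 ± 0.09), and it lies on chromosome 17, where the median gene was lower as well. The cytoplasmic actins Actb (-0.24) and Actg1 (0.06) did not pass. Acta2 also marks fibroblasts: the summed fibroblast markers were 18.2 to 24.5 TPM in the Ift140 knockout and 0.881 to 1.46 TPM in the Dync2h1 knockout, mostly Acta2, with the defining genes Col1a2 and Lum at 0 in all 6 libraries. In bulk RNA, fewer cells of a kind and less RNA per cell cannot be told apart.

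**Figure D2:**
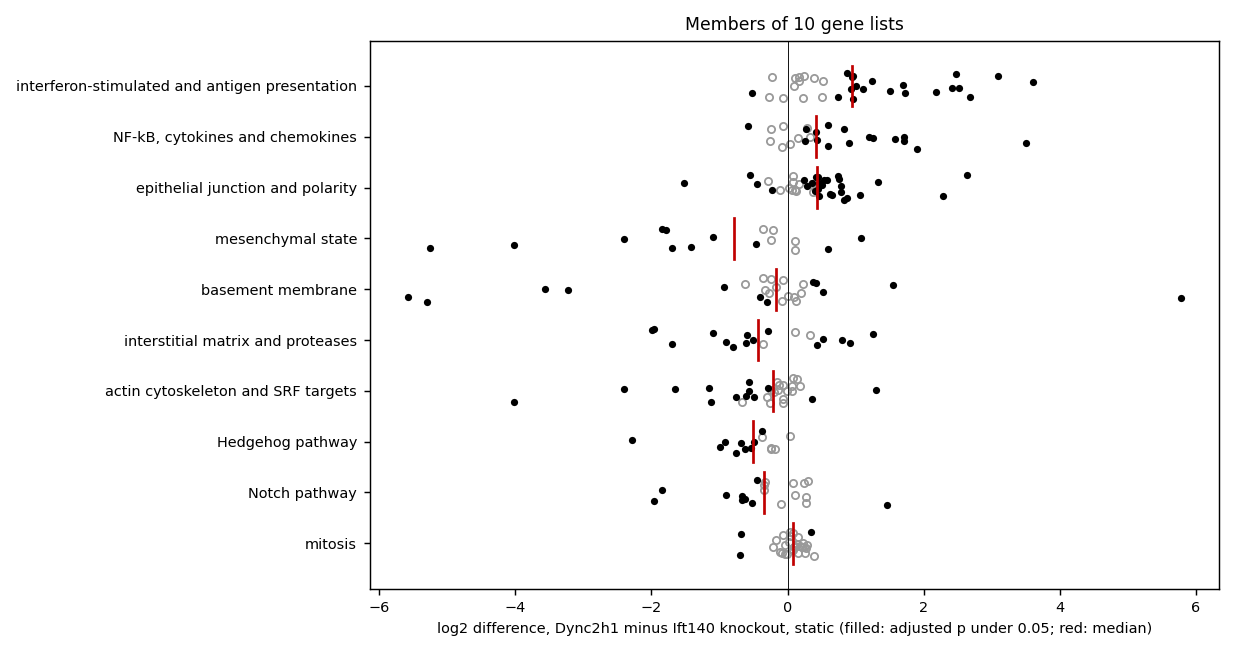
Differences of single genes in 10 lists, on the log2(scaled TPM + 1) scale, Dync2h1 minus Ift140 knockout, static. Each circle is a gene, filled where the adjusted p was under 0.05, and the red bar is the median of the tested members. Interferon, NF-kB and epithelial lists lie mostly to the right, mesenchymal and Hedgehog lists mostly to the left, and mitosis genes lie near 0.

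Interferon-stimulated genes, which cells switch on through dedicated transcription factors after sensing viral nucleic acid or interferon, were higher in the Dync2h1 knockout. Of 32 tested members 19 were higher (59.4%) and 1 lower (3.13%), against 11.4% and 12% of all genes. The list median was 0.94. Of the 19, 13 differed by at least 1, where 2.40% of all genes were higher by that much. Of the higher members 4, Rsad2 and Ifi44 among them, entered through the Dync2h1 knockout alone. Rsad2, viperin, was at 0.682, 0.602 and 0.148 TPM in the Ift140 knockout and at 14.2, 10.8 and 9.56 TPM in the Dync2h1 knockout (3.09 ± 0.28). Ifi44 was at 0.946, 0.107 and 0.0695 TPM against 13.5, 21.9 and 11.5 TPM (3.60 ± 0.44), and Ifit1 at 0.875, 0.865 and 1.01 TPM against 11, 9.85 and 9.23 TPM (2.52 ± 0.15). The lines did not overlap for these 3 genes, nor, in the same direction, for 22.4% of all genes tested. For Rsad2 and Ifi44 this followed from how they entered. Wild type lay between the lines at 3.20 to 4.92 TPM for Ifi44 and 1.65 to 2.54 TPM for Ifit1. At 0.650 to 1.01 TPM for Rsad2, wild type overlapped the Ift140 knockout.

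Promoter sequence was examined because 19 of the 32 tested members were higher. Interferon factors are known to bind the interferon-stimulated response element, and the letters TTTC, 2 bases of any kind and TTTC again were searched, on both strands (GAAA, 2 bases and GAAA on the other strand), in the 250 bases before each RefSeq start. They were present in at least 1 window of 936 of 27025 genes (3.46%), and in 978 of 32851 windows (2.98%). Of the 27 tested list members with a window, 11 held them (40.7%): 9 of 16 that were higher, 2 of 10 that did not pass and 0 of 1 that was lower. Higher members whose windows lacked them included Ifi44, Oasl2 and Irf7. Ifit3 holds the letters but was at 79.7, 70.6 and 83.4 TPM against 66.2, 70.7 and 57.0 TPM (-0.27, adjusted p = 0.153). Below are its window and those of 4 strongly different genes that hold the letters. They are on GRCm38.p6, from RefSeq, 5′ to 3′ on the gene's strand, with the matches in capitals: Rsad2 at chr12:26456453-26456702 (minus strand), Ifit1 at chr19:34640639-34640888 (plus), Ddx60 at chr8:61927837-61928086 (plus), Oas3 at chr5:120777660-120777909 (minus) and Ifit3 at chr19:34583279-34583528 (plus).
Rsad2: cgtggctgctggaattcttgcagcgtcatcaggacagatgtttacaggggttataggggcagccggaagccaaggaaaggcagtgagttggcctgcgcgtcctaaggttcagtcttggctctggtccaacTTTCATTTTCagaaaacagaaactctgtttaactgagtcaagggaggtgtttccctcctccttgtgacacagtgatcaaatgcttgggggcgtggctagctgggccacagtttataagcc
Ifit1: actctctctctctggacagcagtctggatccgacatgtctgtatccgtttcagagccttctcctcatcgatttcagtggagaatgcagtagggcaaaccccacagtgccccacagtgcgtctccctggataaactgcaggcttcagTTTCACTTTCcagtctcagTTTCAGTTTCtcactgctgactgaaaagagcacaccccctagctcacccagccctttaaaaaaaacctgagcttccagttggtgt
Ddx60: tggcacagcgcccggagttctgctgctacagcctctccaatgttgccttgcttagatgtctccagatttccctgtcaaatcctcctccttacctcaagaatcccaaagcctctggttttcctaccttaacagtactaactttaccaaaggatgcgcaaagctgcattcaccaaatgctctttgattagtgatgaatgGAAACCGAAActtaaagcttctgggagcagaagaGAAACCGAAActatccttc
Oas3: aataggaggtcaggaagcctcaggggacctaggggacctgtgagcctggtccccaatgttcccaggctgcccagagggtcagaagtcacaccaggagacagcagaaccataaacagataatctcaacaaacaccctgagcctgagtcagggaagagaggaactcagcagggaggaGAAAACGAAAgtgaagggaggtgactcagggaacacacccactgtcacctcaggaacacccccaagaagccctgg
Ifit3: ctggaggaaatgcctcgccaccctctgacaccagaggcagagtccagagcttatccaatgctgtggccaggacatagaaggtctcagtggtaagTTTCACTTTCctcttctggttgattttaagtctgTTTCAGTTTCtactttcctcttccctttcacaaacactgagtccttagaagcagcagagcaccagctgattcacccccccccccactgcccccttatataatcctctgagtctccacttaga
The pattern thus occurs in promoters of some higher genes and of Ifit3 and Stat2, which did not pass. A match is a stretch of letters, not a measured binding site. Ddx60 and Oas3, which encode an RNA helicase and a synthase that senses double-stranded RNA, differed by 3.15 ± 0.30 and 2.72 ± 0.41 and were not members of the list. Both passed the level filter through the Dync2h1 knockout alone and so had to differ.

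Among sensors and effectors, the RNA sensor genes Ddx58 (0.95) and Ifih1 (0.93), the GTPase genes Mx2 (2.69 ± 0.31) and Gbp3 (2.18), the synthetase genes Oasl2 (2.42 ± 0.30) and Oas1a (1.73) and the deISGylase gene Usp18 (2.48 ± 0.32) were higher. Among the transcription factors, Irf7 was at 2.67, 1.95 and 1.96 TPM against 6.59, 12.9 and 5.87 TPM (1.5 ± 0.26) and Irf9 was higher (0.74), while Stat2 (0.11) and Irf1 (0.10) did not pass. In antigen presentation B2m was at 82.0, 85.2 and 74.4 TPM against 174, 153 and 145 TPM (0.96 ± 0.12) and H2-T23 was higher (0.96). H2-K1 (0.16), H2-D1 (0.23) and Tap1 (0.52) did not pass, and Tapbp was lower (-0.52). Summed leukocyte markers were at 14.4 to 16.7 TPM in the Ift140 knockout and 14.6 to 18.5 TPM in the Dync2h1 knockout, with 6 of the 13 markers at 0 in all 6 libraries. Gene copies such as the Oas1, Gbp, Ifit and Apol9 families can share reads, so the split within each family is uncertain.

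NF-kB targets and chemokine genes were higher for 15 of 24 tested members (62.5%) and lower for 1 (4.17%), with a median of 0.42. The shares of all genes were 11.4% and 12%. Ccl2, the monocyte attractant, was at 0.895, 0.632 and 0.556 TPM in the Ift140 knockout and at 18.9, 17.9 and 17.6 TPM in the Dync2h1 knockout (3.50 ± 0.24, adjusted p = 3.59e-08). Wild type held 6.93, 4.06 and 5.98 TPM. Cxcl16 was at 33.2, 35.1 and 37.6 TPM against 82.0, 84.2 and 79.4 TPM (1.19 ± 0.07), and Cxcl10, which interferon also induces, was at 0.875, 1.02 and 0.852 TPM against 5.84, 5.05 and 4.95 TPM (1.71 ± 0.21). Ccl20 (1.91), the adhesion gene Vcam1 (1.71 ± 0.13) and Tnfaip2 (1.25 ± 0.10) were also higher. The factor genes Nfkb1 (0.26), Nfkb2 (0.27) and Relb (0.60) differed less, Rela did not pass (-0.26), and Bcl3 was lower (-0.58). Of the higher members 3, Ccl2 among them, entered through the Dync2h1 knockout alone.

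**Figure D3:**
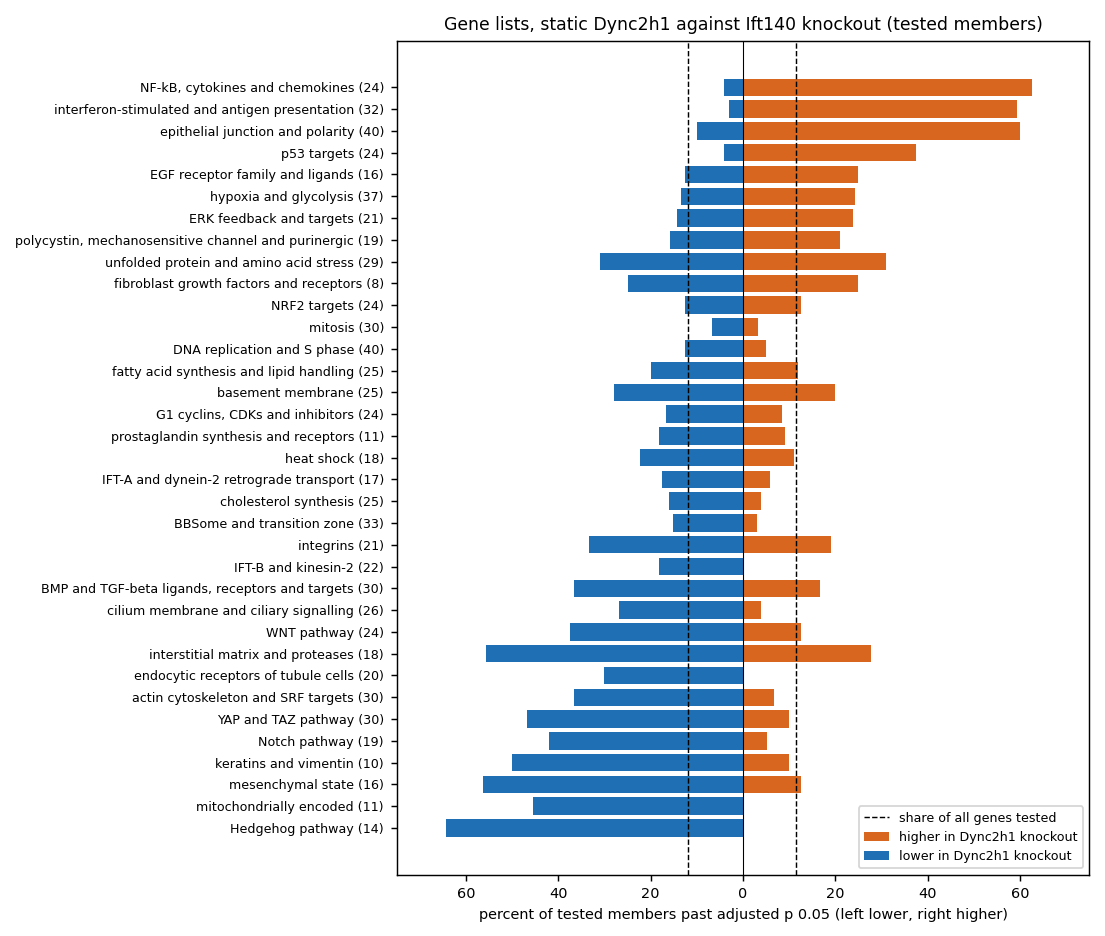
Share of the tested members of each list that were higher (orange, right) or lower (blue, left) in the static Dync2h1 knockout at an adjusted p under 0.05, with the number of tested members in brackets. Dashed lines are the shares among all genes tested, 11.4% higher and 12% lower. NF-kB, interferon and epithelial lists reach furthest right and the Hedgehog list furthest left.

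The Hedgehog pathway, whose receptor Ptch1 and transducer Smo act at the cilium, had 9 of 14 tested members lower (64.3%) and 0 higher. Of all genes 12% were lower and 11.4% higher. The list median was -0.51. Gas1, a co-receptor gene, was at 4.92, 4.64 and 3.99 TPM in the Ift140 knockout and at 0.117, 0.122 and 0.131 TPM in the Dync2h1 knockout (-2.29 ± 0.13), and it entered through the Ift140 knockout alone. Cdon, another co-receptor gene, was at 27.6, 29.0 and 31.9 TPM against 13.7, 15.3 and 16.5 TPM (-0.92 ± 0.12). Smo was at 125, 124 and 139 TPM against 73.7, 78.0 and 75.6 TPM (-0.76 ± 0.08), and Kif7, the kinesin of the ciliary tip, differed by -0.99 ± 0.17. The groups did not overlap for these 4 genes, nor, in the same direction, for 19.8% of all genes tested. For Gas1 this followed from how it entered. Wild-type levels of Gas1, Smo and Cdon were nearer to those of the Ift140 knockout. Ptch1 (-0.24), a receptor and target, and Gli3 (-0.24) did not pass. Of the 9 lower members Smo, Disp1 and Gpr161 lie on chromosomes 1 and 6, where the median gene was lower too.

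In the Notch pathway (median -0.34) 8 of 19 tested members were lower (42.1%) and 1 higher (5.26%), against 12% and 11.4% of all genes. The ligand genes went in opposite directions. Jag1 was at 145, 142 and 138 TPM in the Ift140 knockout and at 38.5, 30.3 and 38.4 TPM in the Dync2h1 knockout (-1.96 ± 0.12), and Jag2 was at 19.3, 21.2 and 27.5 TPM against 66.5, 55.1 and 70.6 TPM (1.47 ± 0.15). The target genes Hey2 (-1.85 ± 0.20), Hey1 (-0.91) and Hes1 (-0.67 ± 0.09) were lower, of which Hey2 and Hey1 entered through the Ift140 knockout alone. Notch2 was the receptor gene with the highest level that passed (-0.53), and Notch1 (0.27) and Notch3 (0.31) did not pass.

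WNT genes were lower for 9 of 24 (37.5%) and higher for 3 (12.5%), against 12% and 11.4% of all genes (median -0.17). Lgr4, the R-spondin receptor gene, was at 170, 161 and 143 TPM against 73.3, 67.6 and 65.3 TPM (-1.19 ± 0.10), and the secreted antagonist gene Dkk3 differed by -1.46 ± 0.14. The feedback inhibitor genes Notum (1.89 ± 0.27), Nkd2 (1.11) and Rnf43 (0.55) were the 3 higher members. Notum was at 1.26, 2.66 and 5.41 TPM in the Dync2h1 knockout and at 0.0407, 0 and 0 TPM in the Ift140 knockout, so it entered through 1 line alone.

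BMP and TGF-beta genes were lower for 11 of 30 (36.7%) and higher for 5 (16.7%), against 12% and 11.4% of all genes. Their median was -0.16. Lower ligand genes were Inhbb, at 14.1, 14.3 and 16.2 TPM against 2.44, 2.34 and 2.32 TPM (-2.23 ± 0.10), Bmp6 (-2.19), which entered through the Ift140 knockout alone, and Bmp4, at 8.24, 7.86 and 7.05 TPM against 1.46, 1.46 and 1.44 TPM (-1.83 ± 0.11). Fst, the activin antagonist, was lower as well (-1.20 ± 0.08). Ltbp1, which holds latent TGF-beta in the matrix, was higher (1.92). The receptor gene Tgfbr2 and the signal transducer genes Smad2, Smad3 and Smad4 did not pass. The higher count was 3 without Dync2h1 knockout replicate 2.

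Growth factor genes differed in both directions. Ccnd1, cyclin D1, was at 30.3, 27.7 and 30.9 TPM in the Ift140 knockout and at 78.8, 85.6 and 79.8 TPM in the Dync2h1 knockout (1.43 ± 0.08), with 10.6, 10.1 and 10.2 TPM in wild type, so the lines and wild type formed 3 separate levels. Etv4, a factor induced through ERK, followed the same order, at 14.2, 14.4 and 13.8 TPM, 37.2, 28.1 and 31.3 TPM, and 6.44, 5.43 and 5.90 TPM. Of 21 tested ERK feedback genes and targets 5 were higher (23.8%) and 3 lower (14.3%), against 11.4% and 12% of all genes. The higher count was 3 without Ift140 knockout replicate 2. Among EGF receptor genes, Erbb3 was higher (0.85 ± 0.08), the ligand gene Areg was at 0.112, 0.466 and 1.00 TPM against 4.27, 3.64 and 2.43 TPM (1.56 ± 0.21), and the feedback inhibitor gene Lrig1, on chromosome 6, was lower (-1.19 ± 0.08). Egfr did not pass (-0.02).

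Genes of the cell cycle machinery differed little. Of 30 mitosis genes 1 was higher (3.33%) and 2 lower (6.67%), at a median of 0.08. Of 40 S phase genes 2 were higher (5%) and 5 lower (12.5%), at a median of 0.04. Among all genes 11.4% were higher and 12% lower. The 7 lower genes of these lists, Mcm2, Mcm3, Mcm6, Uhrf1, Chaf1a, Mad2l1 and Cenpf, all lie on chromosomes 1, 6 and 17. On the deposited values without scaling the S phase median was -0.04. Of the p53 target genes 9 of 24 were higher and 1 lower (median 0.22), among them Ddit4 (1.17 ± 0.16), Perp (1.05 ± 0.09) and Mdm2 (0.49), while Cdkn1a, the p21 gene, did not pass (-0.01).

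Stress genes went in both directions. Of 29 tested genes of the unfolded protein and amino acid responses 9 were higher and 9 lower. Among the lower ones Hspa5, the endoplasmic reticulum chaperone BiP, was at 1760.4, 1629 and 2012 TPM in the Ift140 knockout and at 939.9, 978 and 1022 TPM in the Dync2h1 knockout (-0.87 ± 0.12), and Pdia4 (-1.01), Hsp90b1 (-0.69), Creld2 (-0.77), the degradation factor gene Edem1 (-0.85) and the transcription factor gene Xbp1 (-0.42) were lower too. The higher ones included Atf4 (0.57) and genes it is known to drive: Trib3, at 9.80, 10.4 and 10.3 TPM against 27.0, 30.6 and 26.1 TPM (1.37 ± 0.12), Chac1 (1.18 ± 0.14), Sesn2 (0.84) and Asns (0.49). Of 18 heat shock genes 2 were higher (11.1%) and 4 lower (22.2%), Hspb8 with the largest value (-1.68 ± 0.10). Of 24 NRF2 targets 3 were higher and 3 lower (12.5% each), where 11.4% and 12% of all genes were. The large value of Nqo1 was thus not shared by the list.

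Metabolic lists moved modestly. Of 37 tested hypoxia and glycolysis genes 9 were higher (24.3%) and 5 lower (13.5%), where 11.4% and 12% of all genes were. The higher count was 5 without Dync2h1 knockout replicate 1. The glucose transporter gene Slc2a1 was at 200, 204 and 203 TPM against 344, 343 and 353 TPM (0.77 ± 0.08). Ak4 differed by 1.25 ± 0.15. Gapdh, often used as a reference gene, was at 257, 242 and 252 TPM in the Ift140 knockout and at 154, 166 and 172 TPM in the Dync2h1 knockout (-0.61 ± 0.12), and it lies on chromosome 6. Cholesterol synthesis genes were lower for 4 of 25 (16%) and higher for 1 (4%), where 12% and 11.4% of all genes were. Lipid genes were lower for 5 of 25 (20%) and higher for 3 (12%), with Angptl4 the largest (1.57 ± 0.14). Mitochondrially encoded genes were lower for 5 of 11, counting mt-Co2, and higher for 0, with mt-Nd5 at 31.4, 33.4 and 22.6 TPM against 19.5, 20.1 and 18.1 TPM (-0.56 ± 0.13), but the count was 2 or 3 without any 1 of the static libraries other than Ift140 knockout replicate 3.

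In each of the 4 cilium lists 1 member was lower by at least 1 on the log2 scale: Dync2h1, Traf3ip1, Ahi1 and Rab23. Of the 17 IFT-A and dynein-2 genes, all tested, Ift140 was higher and Dync2h1, Dync2li1 and Dynlt1b were lower (17.6%, against 12% of all genes). Dync2li1, the light intermediate chain of dynein-2, was at 26.0, 20.7 and 21.5 TPM against 11.4, 10.7 and 14 TPM (-0.86 ± 0.22). Dynlt1b, a light chain, differed by -0.44 ± 0.15. It no longer passed without any 1 of the static knockout libraries other than Ift140 knockout replicate 2. It also no longer passed with the replicate block over 18 libraries, nor with no filter beyond a value above 0. The other IFT-A subunit genes ranged from -0.30 for Ift122 to 0.18 for Ift43 and none passed. Among 22 tested IFT-B and kinesin-2 genes 4 were lower (18.2%) and 0 higher: Traf3ip1 (-1.01 ± 0.18), Kifap3 (-0.77 ± 0.14), Ttc26 (-0.62 ± 0.19) and Ift80 (-0.44 ± 0.13). Without Dync2h1 knockout replicate 1 or without Ift140 knockout replicate 1 the count was 2.

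Of 33 BBSome and transition zone genes 5 were lower (15.2%) and 1 higher (3.03%), where 12% and 11.4% of all genes were. Ahi1, a transition zone gene on chromosome 10, was at 7.94, 6.62 and 6.68 TPM in the Ift140 knockout and at 1.06, 0.764 and 0.965 TPM in the Dync2h1 knockout (-2.07 ± 0.16), with 9.71, 10.7 and 9.05 TPM in wild type. The other 4 lower members differed by -0.48 to -0.33, and the lower count was 1 or 2 without any 1 of the static libraries other than Dync2h1 knockout replicate 3. Cilium membrane and signalling genes were lower for 7 of 26 (26.9%) and higher for 1. Arl13b, a GTPase of the ciliary membrane, was at 26.5, 25 and 27.4 TPM against 15.5, 14.7 and 16.2 TPM (-0.73 ± 0.09). Pkhd1, the fibrocystin gene of recessive polycystic kidney disease, was at 235, 265 and 241 TPM against 167, 163 and 163 TPM (-0.59 ± 0.10), and the polycystin-1 gene Pkd1 differed by -0.70 ± 0.16, while Pkd2 did not pass (0.01).

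Positions of the lower cilium genes were set beside those of all lower calls. All 3 lower genes of the IFT-A and dynein-2 list, 3 of 4 in the IFT-B list and 5 of 7 in the cilium membrane list lie on chromosomes 1, 6 or 17 or in the first 15 Mb of chromosome 9, and 0 of 5 in the BBSome list do. In all this was 11 of 19 (57.9%), Dync2h1 among them, where 46.7% of all lower calls lie on those positions. This pattern by position was noticed after the values were seen. The part of position in these differences was not tested.

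The median difference was -0.28 for the 932 tested genes of chromosome 1, -0.24 for the 767 of chromosome 6 and -0.36 for the 718 of chromosome 17. It was -0.09 on chromosome 5 and 0.19 on chromosome 12, and between 0.04 and 0.11 on every other chromosome from 2 to X. These medians cover parts that differed: on chromosome 6 the 93 tested genes from 130 Mb on had a median of 0.12 and the 674 before them -0.30. On chromosome 15 the 49 tested genes from 100 Mb on, among them Itga5 and the keratin genes Krt7, Krt8, Krt18 and Krt80, had a median of -0.26 and the 472 before them 0.12. The 3 chromosomes held 15.7% of tested genes, 832 of the 1836 lower calls (45.3%) and 122 of the 1751 higher calls (6.97%). Of lower calls of at least 1 on the log2 scale they held 83 (27.5%), so the large differences were less gathered there. Against wild-type static cells the median on chromosome 1 was -0.01 in the Ift140 knockout and -0.32 in the Dync2h1 knockout, and on chromosome 6 it was -0.03 and -0.31. On chromosome 17 it was 0.30 in the Ift140 knockout and -0.03 in the Dync2h1 knockout. Chromosomes 1 and 6 thus stood out in the Dync2h1 knockout and chromosome 17 in the Ift140 knockout. All 3 libraries of each line had the same sign: the median deviation from the mean of the 6 libraries on chromosome 17 was 0.19, 0.17 and 0.17 in the Ift140 knockout and -0.18, -0.16 and -0.16 in the Dync2h1 knockout. Ift140, on chromosome 17, was higher in the Dync2h1 knockout and so went against the median of its chromosome.

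**Figure D4:**
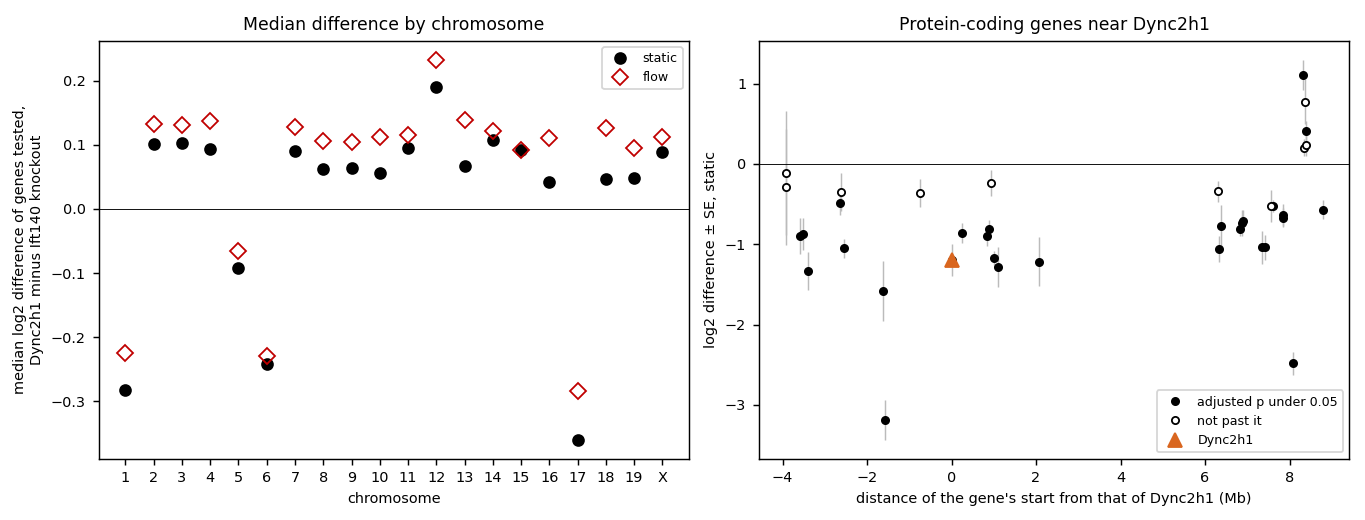
Left, the median log2 difference of the tested genes of each chromosome, Dync2h1 minus Ift140 knockout, in static (filled) and flow libraries (diamonds). Right, protein-coding genes at the start of chromosome 9 by distance from the start of Dync2h1 in Mb, with their static difference and SE. Chromosomes 1, 6 and 17 lie at -0.36 to -0.24 in static libraries, and genes on both sides of Dync2h1 are lower up to Panx1.

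The neighbours of Dync2h1 were lower as well. From the start of chromosome 9 to Panx1 (15002128 to 15045478) 32 protein-coding genes were tested, and 25 were lower and 0 higher, with a median of -0.84. Without Dync2h1 the count was 24 of 31 and the median -0.81, where 12% of all genes were lower. Dcun1d5, the next gene, averaged 119 TPM in the Ift140 knockout and 65.2 TPM in the Dync2h1 knockout (-0.86 ± 0.12), and Birc2, an inhibitor of apoptosis, 24.1 against 13.2 TPM (-0.81 ± 0.12). Casp12 and Casp4, inflammatory caspase genes, differed by -3.19 ± 0.24 and -1.59 ± 0.37. Panx1, which forms an ATP release channel, was listed at 0 in all Dync2h1 knockout libraries and was at 5.17, 4.07 and 4.55 TPM in the Ift140 knockout. It entered through the Ift140 knockout alone and so had to be lower, and it is counted among the 25. Beyond Panx1, up to 25 Mb, 8 of 69 genes were higher and 5 lower, with a median of 0.12. Against wild type the median of the stretch was -1.0 in the Dync2h1 knockout and -0.18 in the Ift140 knockout. The difference of Dync2h1 itself was -1.20 in static libraries, and -1.58 under flow against a median of -0.76 for the other genes of the stretch. Without the flow library labelled Ift140 knockout replicate 3 these flow values were -1.38 and -0.82. The end of the stretch was chosen from these values, and why it differs was not tested.

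Yap1, the transducer of the Hippo pathway, lies in that stretch. It was at 49.4, 46.3 and 51.1 TPM in the Ift140 knockout and at 22.1, 18.8 and 22.8 TPM in the Dync2h1 knockout (-1.17 ± 0.09). Of 30 YAP and TAZ pathway genes 14 were lower (46.7%) and 3 higher (10%), against 12% and 11.4% of all genes. The list median was -0.25, and 6 of the 14 lower members lie on the positions named above. The best known target genes did not share a direction: Ctgf averaged 249 against 346 TPM (0.47) and Cyr61 524 against 408 TPM (-0.36), and Ankrd1 did not pass (-0.17). Crim1 had the largest lower value (-1.29 ± 0.08) and F3, tissue factor, the largest higher value (0.85 ± 0.09). The lower count was 7 without Dync2h1 knockout replicate 1, and 9 without Dync2h1 knockout replicate 3, Ift140 knockout replicate 1 or Ift140 knockout replicate 3.

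Outside chromosomes 1, 6 and 17 and the chromosome 9 stretch, 1607 of 12572 placed genes were higher and 953 lower, with a median of 0.08. Of the interferon list 1 lower and 2 higher members lay on those positions, of the NF-kB list 1 higher member, and of the epithelial list 1 lower and 2 higher members.

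The same comparison was made between the flow libraries of both lines. Both comparisons came from 1 fit with shared scaling and a shared estimate of the spread, so their calls are not independent. Under flow 3176 genes (20.7%) were higher in the Dync2h1 knockout and 2176 (14.2%) lower. Of the 1751 static higher genes 1376 were higher under flow (78.6% of the static and 43.3% of the flow calls) and 6 lower. Of the 1836 static lower genes 1336 were lower under flow (72.8% and 61.4%) and 1 higher. Without the flow library labelled Ift140 knockout replicate 3, the fit called 2430 higher and 2307 lower genes in static culture and 2415 and 2103 under flow, with 1599 and 1580 shared. Serpinh1 differed by 5.96 under flow, Igfbp2 by -6.04, Vim by -5.21, Col4a1 by -6.36, Lrp2 by -4.29 and Ccl2 by 4.30. Without that library the values were 5.96, -6.17, -5.35, -6.32, -4.09 and 3.98. Of the 30 genes with the largest static differences 28 passed under flow in the same direction, with and without that library, and in the fit of all libraries Snora43, a small nucleolar RNA, and mt-Co2 did not. The chromosome medians under flow were -0.22 on chromosome 1, -0.23 on chromosome 6 and -0.28 on chromosome 17, and that of the chromosome 9 stretch was -0.78. Without that library they were -0.26, -0.23, -0.31 and -0.86.

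**Figure D5:**
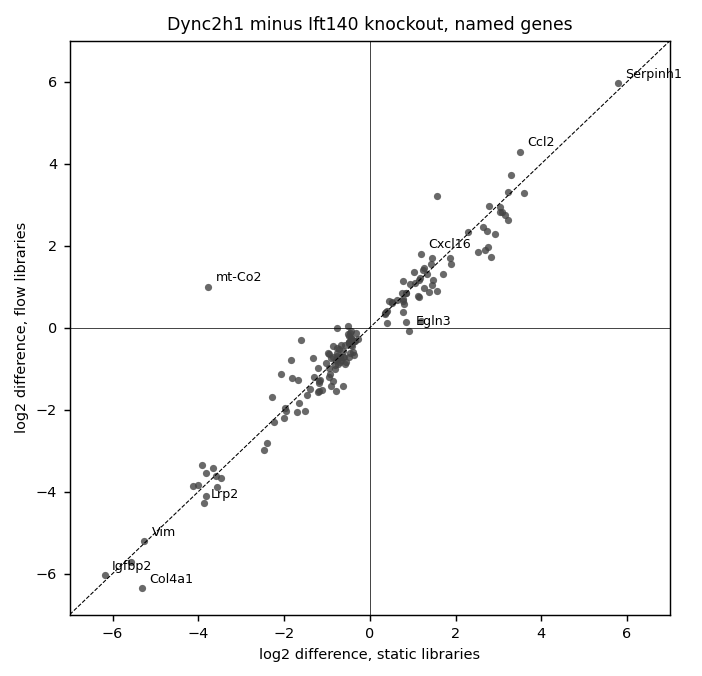
Differences of the 157 named genes, Dync2h1 minus Ift140 knockout, in static libraries (x axis) and in flow libraries (y axis), both on the log2(scaled TPM + 1) scale, with the dashed line at equal values. Genes such as Serpinh1 and Igfbp2 lie near the line, and mt-Co2 is far from it.

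A test of the difference between the flow and static comparisons passed for 6 of 15353 genes (0.0391%), with 1405 at an unadjusted p under 0.05, and for 18 genes without that flow library. Cxcl16 and Egln3 were the named genes among the 6. Egln3, an oxygen-sensing hydroxylase, was higher in the static Dync2h1 knockout, at 2.69, 3.23 and 3.13 TPM against 1.15, 1.16 and 1.10 TPM (0.91 ± 0.11). It differed by -0.07 under flow, or -0.09 without that library, with both lines below 1 TPM, near the floor of the scale.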

How the data were processed

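The authors' deposited files hold 1 signal value per gene and library, in TPM, transcript shares corrected for length. Per the submitters' processing notes, FastQC 0.11.5, Bowtie2 2.1.0 and RSEM 1.2.31 were used with mm10 and GRCm38.p5, and settings are not given in the sources used here. The unit was read from the gene rows, which sum to 1 fixed total in every library, and the row repeating that sum was left out. TPM keeps no depth, so counting error is unknown, and a 0 may be a failed estimate.

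All 18 libraries were scaled by an unweighted trimmed mean of log ratios (30% of ratios, 5% of abundances trimmed). log2(scaled TPM + 1), which understates changes of low genes, was fitted with 6 group means (12 residual degrees of freedom) in limma 3.58.1 (R 4.3.3) with a mean-variance trend. Calls used a Benjamini-Hochberg adjusted p under 0.05 over 15353 genes. The level filter's edge was gradual: 661 genes had exactly 3 libraries at 1 TPM (median level 1.13 TPM) and 658 had 2 (0.858 TPM). The script was tested on simulated data.

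Named genes were the 15 largest differences each way among calls without overlap and with at least 5 TPM in the higher group, up to 4 called members per list by p, and both targeted genes. Predicted genes were skipped, and further list members were chosen after their values were seen. The members and lists were chosen with earlier results of these data known. Of the genes tested, 15066 matched GENCODE vM21 (GRCm38) names. The main fit did not pair samples by replicate number. The labels do not say whether libraries with the same number were prepared together. Alternatives covered scaling, filter, pseudocount, libraries fitted, trend, weights, blocks and thresholds. Some genes are not reported here.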

Additional observations from a re-analysis of the deposited data

Results flagged for a closer look

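The difference between the lines changed with flow for Egln3 and Cxcl16, by a test of that change in limma. For Egln3 the change (flow minus static) was -0.98 ± 0.16 (adjusted p = 0.0455, and 0.0337 without the flow library labelled Ift140 knockout replicate 3). The flow libraries held 0.25, 0.31 and 0.22 TPM in the Ift140 knockout and 0.15, 0.24 and 0.21 TPM in the Dync2h1 knockout. These levels are all below 1 TPM, where the log2(TPM + 1) scale leaves little room for a difference between the lines. For Cxcl16 the change was 0.62 ± 0.10 (adjusted p = 0.0455, and 0.0337 without that library), with 35.7, 37.5 and 34.7 TPM against 138, 129 and 119 TPM under flow.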

How the results depend on the processing

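The calls of Ift140 and Dync2h1 kept their direction and their side of the threshold in every alternative fit that held them, and the fit without the chromosomes named below held neither. The Dync2h1 difference ran from -1.31 to -0.99 when each replicate was left out. Over the scaling, filter, pseudocount, library and trend alternatives the higher count ran from 1257 to 2430 and the lower from 1607 to 2307. Leaving out each replicate gave 1223 to 1618 higher and 1370 to 1539 lower genes, and 2081 to 2550 shared with flow. Weights per library gave 2676 higher genes and 4071 shared with flow. An adjusted p of 0.01 gave 936 higher and 1119 lower genes and 1563 shared, and a difference of at least 1 gave 368, 302 and 467. Without chromosomes 1, 6 and 17 and the first part of 9, an alternative chosen after seeing the data that tests fewer genes, 924 were lower and 1542 higher (62.5% higher). The cause of the other changes was not tested.

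With the replicate block 1624 genes were higher and 1718 lower over 18 libraries, and 1528 and 1514 over the 6. Correlations of same-numbered deviations were 0.151, -0.112 and 0.160, and 2 of 3 numbers correlated best with their own.

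Of 3513 values of named genes under the alternatives, 3428 stayed past the threshold in the same direction, 85 no longer passed, over 19 genes, and 0 changed sign. Of 35 pathway list medians 6 took both signs over the scalings (integrins, G1, lipid, fibroblast growth factor, unfolded protein and S phase), and those of the IFT-A and polycystin lists changed sign without those chromosomes. The count shared with flow has no value where static libraries alone were fitted. TPM keeps no depth, which limits statements on genes near 0.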
